A study of Homo sapiens with 9 samples.

Results

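The autophagy and lysosome genes described here are 45 named genes that build the autophagosome, choose its cargo, or make up the lysosome that digests it. All 45 were measured, among 19775 genes in all, on oligonucleotide arrays. The cells were A549, a long-established line from a human lung adenocarcinoma. The cells received an siRNA against NRF2 (gene symbol NFE2L2, labelled Nrf2 siRNA), a non-targeting siRNA (NS siRNA), or transfection reagent with no siRNA (mock). Each siRNA was used at 25 nM, RNA was taken 96 h after transfection, and each of the 3 groups held 3 biological replicates, 1 array each. All groups are 1 cell line grown in the same medium, and none carries another treatment. The study used 1 siRNA against NRF2 with no rescue, so NRF2 loss and any other action of that siRNA cannot be told apart. The genes were set by name, with earlier results of these data known. Each gene is given by the brightest of its probe sets that match 1 gene only, by the mean over the 9 arrays.

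In autophagy a double membrane grows around cytoplasmic cargo, closes into an autophagosome and fuses with a lysosome, whose acid hydrolases digest the contents. A kinase complex around ULK1 starts the process, a lipid kinase complex around PIK3C3 marks the membrane, and a conjugation system then builds on it. Receptors such as SQSTM1 bind ubiquitin-tagged cargo and bring it to the membrane. SQSTM1 also binds KEAP1, the protein that holds NRF2 at a low level, and its gene is a known NRF2 target. A549 cells are known to carry a KEAP1 mutation that leaves NRF2 active. The transcription factors TFEB, TFE3 and MITF drive many lysosomal genes through a DNA element called CLEAR, built around an E-box.

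Levels are RMA values on the log2 scale, where a difference of 1 is a 2-fold change, and they compare samples for 1 gene but not one gene with another. Array medians lay between 7.51 and 7.57, and the median SD between replicates of a gene was 0.0687. Precision is limited by having 3 arrays a group. NFE2L2 itself averaged 10.25 ± 0.11 (SD, n = 3) after Nrf2 siRNA, while mock had 11.99 ± 0.08 and NS siRNA 12.09 ± 0.06. Of the epithelial markers KRT8, KRT18, KRT19, EPCAM and CDH1 all 5 were above the array medians. Against NS siRNA 3 of the 5 were called higher in Nrf2 siRNA (KRT19 by 1.15, EPCAM and CDH1 by 0.48 each), and against mock 4 (KRT19 by 1.95, EPCAM by 1.20, CDH1 by 0.94, KRT8 by 0.21). The same 4 were higher in NS siRNA than in mock. Their summed log2 level ran from 15.64 to 15.65 in mock, 15.77 to 15.78 in NS siRNA and 15.88 to 15.94 in Nrf2 siRNA, and their part in the members' differences was not tested. Of 4 measured macrophage and leukocyte markers PTPRC, CSF1R and LYZ were below the array medians in every group, while CD14 was 0.96 higher in Nrf2 siRNA than in NS siRNA (limma, adjusted p = 8.03e-08).

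The main comparison asked which members differ between the cells given the Nrf2 siRNA and those given NS siRNA. The members moved both ways and did not move as a block. The cargo receptor SQSTM1, the glycosidase GLA and the lysosomal channel MCOLN1 fell, while WIPI1, a reader of membrane lipid, MAP1LC3B and GABARAP rose. These rises depended on the control: against mock WIPI1 differed by 1.04, MAP1LC3B by 0.13 and GABARAP by 0.02, the last not called. By limma with Benjamini-Hochberg adjustment over all 19775 genes, 17 of 45 members were higher and 17 lower at adjusted p below 0.05, and the other 11 were not called. Over all genes 47.6% were called, 21.0% higher and 26.6% lower, against 75.6% of the members. Every member was brighter, in its mean over the 9 arrays, than the median probe set (7.54), and 59.9% of the 13139 genes brighter than it were called. The median over the members was -0.06 and over all genes -0.05. A level in a culture can fall because fewer cells hold a transcript or because each holds less of it, and these cannot be told apart.

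Most of the changes were small. The median size was 1.22-fold for the members and 1.10-fold for all genes, and 5 members, WIPI1, SQSTM1, MAP1LC3B, GABARAP and GLA, differed by 2-fold or more, as did 2.83% of all genes. Against mock 14 members were higher and 16 lower, where 33.0% of all genes were called (16.4% higher, 16.7% lower) and 44.5% of those above the median level. The median over the members was -0.06 against mock, and 3 of them (GLA, WIPI1 and SQSTM1) reached 2-fold, as did 1.44% of all genes. The comparisons with NS siRNA and with mock share the Nrf2 siRNA arrays, so they are given side by side and not as independent evidence. Array by array, the 3 Nrf2 siRNA arrays lay above all 6 control arrays for 12 members (26.7%) and below them for 17 (37.8%). Over all genes this held for 14.9% and 17.0%. It was not counted for genes above the median level, where every member lies.

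**Figure D1:**
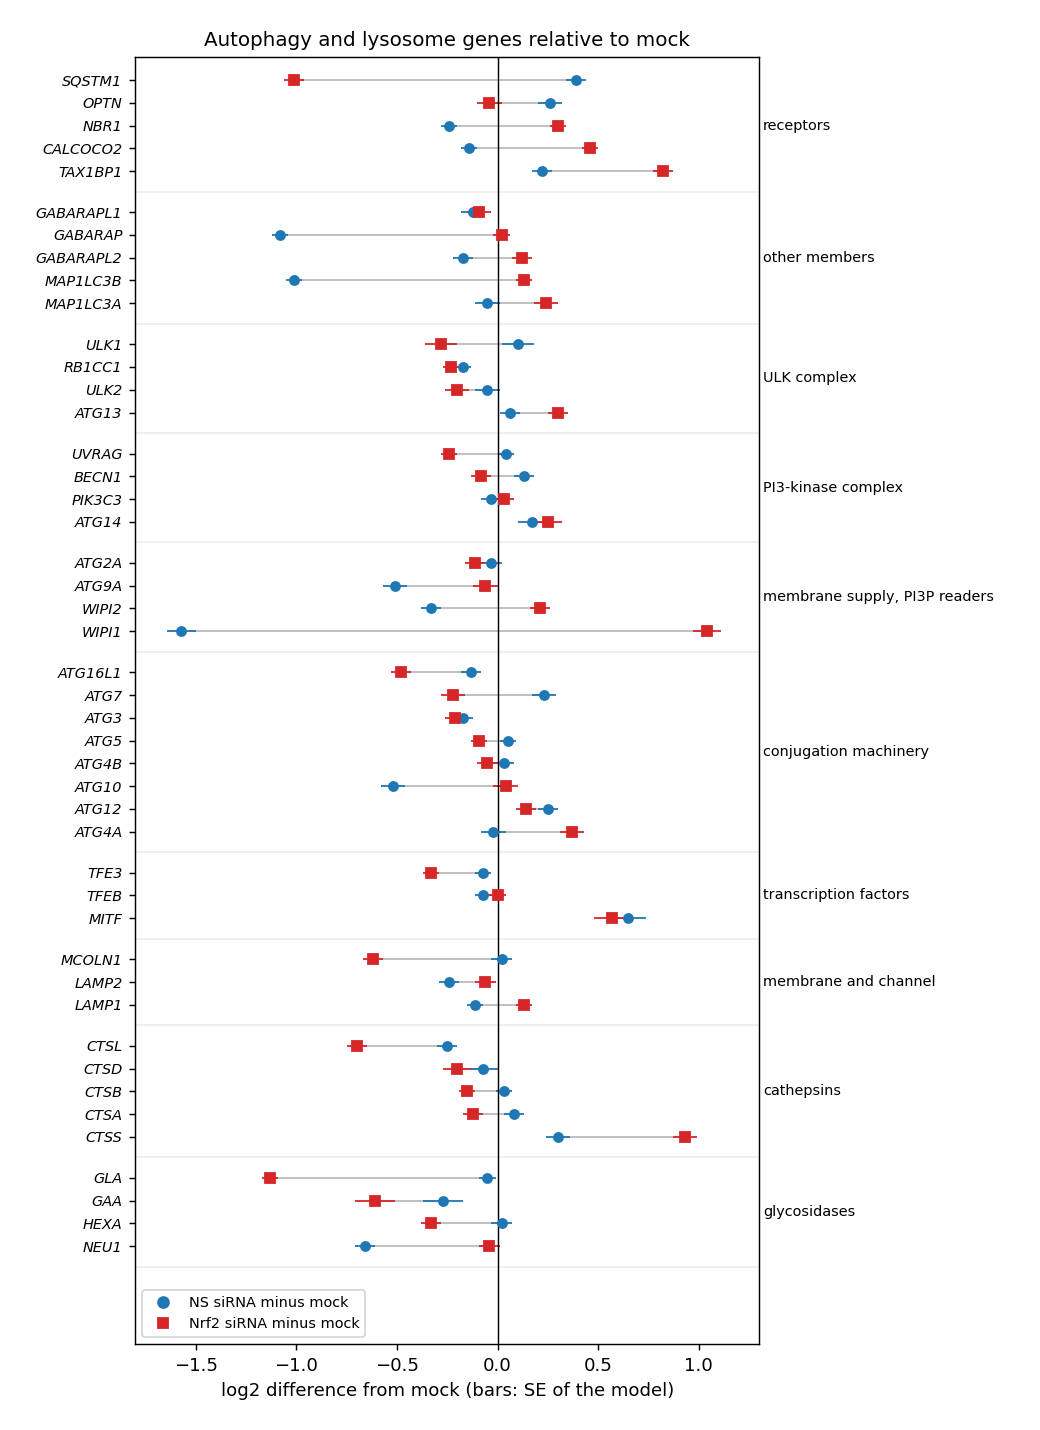
Log2 difference from mock (horizontal axis) of each of the 45 members, grouped by role, for NS siRNA (blue circles) and Nrf2 siRNA (red squares); bars are the SE of the model, 3 arrays a group. SQSTM1 and GLA lie farthest to the left after Nrf2 siRNA (-1.01 and -1.13), WIPI1 farthest to the right (1.04), and WIPI1, GABARAP and MAP1LC3B farthest to the left after NS siRNA (-1.57, -1.08 and -1.01).

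The cargo receptors split. SQSTM1 stood at 13.26, 13.23 and 13.23 in mock, 13.67, 13.64 and 13.59 in NS siRNA, and 12.17, 12.24 and 12.29 in Nrf2 siRNA. The 3 groups did not overlap, with NS siRNA highest and Nrf2 siRNA lowest. SQSTM1 fell 2.64-fold against NS siRNA (-1.40 ± 0.05 SE, log2, adjusted p = 1.41e-10) and 2.02-fold against mock (-1.01 ± 0.05, adjusted p = 4.78e-09). All 4 other SQSTM1 probe sets were called lower against NS siRNA too, with differences from -0.42 to -2.39, and 2 of these 4 also against mock. OPTN, the receptor optineurin, fell against NS siRNA by 0.30 and did not pass against mock (-0.04 ± 0.06, adjusted p = 0.657), and its other probe set was called in the opposite direction (0.58), so its direction is uncertain.

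The other receptors rose. TAX1BP1, a receptor for ubiquitin-tagged aggregates, stood at 12.10, 12.08 and 12.09 in mock, 12.31, 12.37 and 12.25 in NS siRNA, and 12.90, 13.01 and 12.83 in Nrf2 siRNA. It rose 1.52-fold against NS siRNA (adjusted p = 9.21e-07) and 1.77-fold against mock (adjusted p = 1.15e-07), and both other probe sets rose with it. CALCOCO2, a receptor for bacteria and damaged mitochondria, stood at 11.72, 11.69 and 11.69 in mock, 11.57, 11.55 and 11.55 in NS siRNA, and 12.13, 12.15 and 12.19 in Nrf2 siRNA. The Nrf2 siRNA arrays were the highest of the 9 for both genes, without overlap. CALCOCO2 rose against NS siRNA by 1.51-fold and against mock by 1.37-fold (adjusted p = 1.03e-07 and 2.34e-06). NBR1, a receptor related to SQSTM1, rose by 0.53 against NS siRNA and by 0.30 against mock (adjusted p = 3.11e-07 and 0.000104). The brighter of its 3 other probe sets rose as well (0.35), and the 2 dim ones, at 5.78 and 4.79, were not called.

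**Figure D2:**
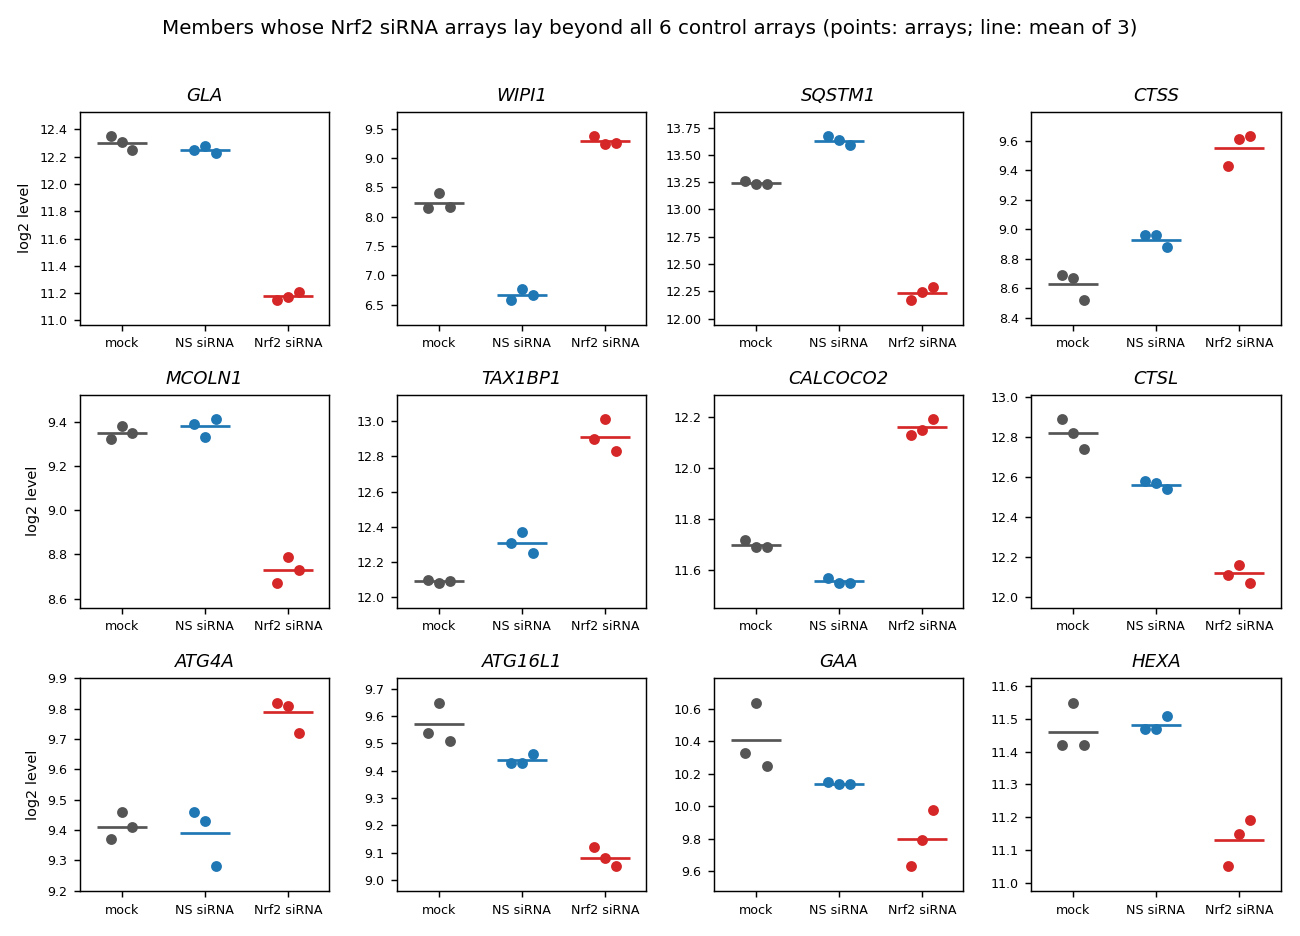
Log2 level (vertical axis, own scale in each panel) of the 12 members named by rule, each point 1 array and each line the mean of 3. The rule took only members whose Nrf2 siRNA arrays did not overlap the control arrays, so that separation follows from the choice. GLA, SQSTM1, MCOLN1, CTSL, ATG16L1, GAA and HEXA have their 3 Nrf2 siRNA arrays below all 6 control arrays, and WIPI1, CTSS, TAX1BP1, CALCOCO2 and ATG4A above them.

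MAP1LC3B, a widely used marker of autophagosomes, stood at 11.76, 11.80 and 11.78 in mock, 10.77, 10.77 and 10.76 in NS siRNA, and 11.97, 11.92 and 11.85 in Nrf2 siRNA. NS siRNA was the group that stood apart, and mock and Nrf2 siRNA were close but did not overlap. The rise of MAP1LC3B was 2.21-fold against NS siRNA (adjusted p = 5.52e-10) and 1.10-fold against mock (0.13 ± 0.04, adjusted p = 0.0347). The call against mock was lost in 8 of the 17 other ways of processing (adjusted p ran from 0.00903 to 0.452 over them). Leaving out any 1 of the 3 mock arrays ended it (adjusted p = 0.109, 0.0549 and 0.0781 without mock replicate 1, 2 and 3), as did leaving out Nrf2 siRNA replicate 1 (0.119) or 2 (0.07). The other MAP1LC3B probe set rose by 0.19 against NS siRNA and was at -0.05 against mock (adjusted p = 0.525). MAP1LC3B has a near-identical copy, MAP1LC3B2, whose transcripts the probes may also read, so its values are uncertain.

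GABARAP stood at 13.23, 13.23 and 13.20 in mock, 12.12, 12.17 and 12.12 in NS siRNA, and 13.22, 13.26 and 13.24 in Nrf2 siRNA. Mock and Nrf2 siRNA overlapped, and NS siRNA lay a full log2 unit below both. The difference was 1.10 ± 0.04 against NS siRNA (adjusted p = 4.08e-10) and 0.02 ± 0.04 against mock (adjusted p = 0.784). MAP1LC3A rose by 0.29 and 0.24 against NS siRNA and mock (adjusted p = 0.00119 and 0.00614), on all 3 of its probe sets. GABARAPL2 rose by 0.29 against NS siRNA and was 0.12 higher than mock without passing (adjusted p = 0.059). GABARAPL1 was not called against either control (0.03 ± 0.06 against NS siRNA, adjusted p = 0.729).

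The lipid readers and membrane suppliers held the largest rise of the set. WIPI1, which binds the lipid made by PIK3C3 on forming autophagosomes, stood at 8.14, 8.41 and 8.17 in mock, 6.58, 6.77 and 6.67 in NS siRNA, and 9.37, 9.24 and 9.25 in Nrf2 siRNA. The groups did not overlap, and in NS siRNA the level was under the array medians; low levels can compress a fold. WIPI1 rose 6.13-fold against NS siRNA (2.61 ± 0.07, adjusted p = 5.00e-11) and 2.06-fold against mock (1.04 ± 0.07, adjusted p = 2.85e-07). Its other probe set differed by 3.30 and 1.25. WIPI2, its relative that recruits ATG16L1, rose by 0.53 and 0.21 (adjusted p = 1.13e-06 and 0.0047). ATG9A, the transmembrane protein of the vesicles that seed the membrane, rose by 0.44 against NS siRNA and was at -0.06 against mock (adjusted p = 0.473). ATG2A, a lipid transfer protein, was not called against either control (-0.08 and -0.11).

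The kinase complexes that start autophagy showed smaller differences. In the ULK complex the kinases ULK1 and ULK2 fell against NS siRNA by 0.37 and 0.15 (adjusted p = 0.00272 and 0.0453), and against mock by 0.28 and 0.20 (adjusted p = 0.0235 and 0.0136). The ULK2 call against NS siRNA was lost in 8 of 17 settings, among them without any 1 NS siRNA array, without Nrf2 siRNA replicate 1 or 3 and without mock replicate 3 (adjusted p = 0.0532 to 0.161). The ULK2 call against mock was lost without mock replicate 2 (adjusted p = 0.0615) or Nrf2 siRNA replicate 1 (0.0584). That of ULK1 against mock was lost without mock replicate 2 (-0.16, adjusted p = 0.0633) and without Nrf2 siRNA replicate 1 or 2 (0.0747 and 0.0776). Their partner ATG13 rose by 0.24 and 0.30 on its brightest probe set (adjusted p = 0.00112 and 0.000354), and both others rose too. The scaffold RB1CC1 fell against mock by 0.23 and differed from NS siRNA by -0.06 ± 0.04 (adjusted p = 0.244). Its other probe set was 0.03 from mock, and the average of both ended the call (-0.10, adjusted p = 0.076). Of the PIK3C3 complex, UVRAG fell by 0.27 against NS siRNA and by 0.24 against mock. BECN1, the complex's regulatory subunit, fell by 0.21 against NS siRNA and was at -0.08 against mock (adjusted p = 0.208). PIK3C3 itself was not called against either control (0.07 and 0.03), although 3 of its 6 dimmer probe sets were called higher against NS siRNA, and so was the average of all 7 (0.21, adjusted p = 0.000258). ATG14, which targets the complex to the membrane, was called higher than in mock (0.25, adjusted p = 0.0186) but not than in NS siRNA (0.07, adjusted p = 0.425). The ATG14 call was lost without mock replicate 1 or 3 or Nrf2 siRNA replicate 1 (adjusted p = 0.0608, 0.0856 and 0.0601).

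Of the 8 conjugation genes 2 rose and 3 fell against NS siRNA, and 2 rose and 3 fell against mock. These shares, 25.0% and 37.5%, were near those of all genes above the median level against NS siRNA (28.7% higher and 31.2% lower; 22.0% and 22.5% against mock). ATG16L1, which places the conjugation complex on the membrane, stood at 9.54, 9.65 and 9.51 in mock, 9.43, 9.43 and 9.46 in NS siRNA, and 9.12, 9.08 and 9.05 in Nrf2 siRNA. It fell by 0.36 and 0.48 against NS siRNA and mock (adjusted p = 4.01e-05 and 5.06e-06), with no overlap between Nrf2 siRNA and the controls. ATG4A, a protease of the conjugation system, stood at 9.37, 9.46 and 9.41 in mock, 9.46, 9.43 and 9.28 in NS siRNA, and 9.82, 9.81 and 9.72 in Nrf2 siRNA. The Nrf2 siRNA arrays of ATG4A were above every control array, and the controls overlapped each other. It rose by 0.40 and 0.37 (adjusted p = 5.97e-05 and 0.000178), whereas its relative ATG4B was not called (-0.09 and -0.05).

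ATG7, the activating enzyme of the conjugation system, fell by 0.46 against NS siRNA and by 0.22 against mock (adjusted p = 2.31e-05 and 0.00847). The ATG7 call against mock was lost when its probe sets were averaged (-0.09, adjusted p = 0.144), and none of its 3 other probe sets was called there. ATG10, which carries ATG12 to ATG5, rose by 0.56 against NS siRNA and was 0.04 from mock (adjusted p = 0.695). Against mock 2 of the 3 other ATG10 probe sets were called higher (0.33 and 0.27), as was the average of all 4 (0.18, adjusted p = 0.00327). ATG5 fell by 0.15 against NS siRNA, but 1 of its other probe sets was called higher (0.29), and the call was lost without NS siRNA replicate 2 (adjusted p = 0.0544). ATG12, which is joined to ATG5, was called against mock (0.14, adjusted p = 0.0356) but not against NS siRNA (-0.11, adjusted p = 0.0623). That call was lost in 9 of 17 settings, among them without any 1 mock array and without Nrf2 siRNA replicate 1 or 3 (adjusted p = 0.0605 to 0.103). Against NS siRNA its 2 other probe sets were called in opposite directions (-0.30 and 0.24). ATG3, a transfer enzyme of the same system, was lower than mock by 0.21 and differed from NS siRNA by -0.04 ± 0.05.

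The 3 regulators of lysosomal genes each had a pattern of its own. TFEB was not called in any comparison on its brightest probe set (0.07 against NS siRNA, adjusted p = 0.191). Its dimmer one was 0.58 higher than in NS siRNA and called, and the average of both was called as well (0.33, adjusted p = 7.4e-05). Against mock the dimmer TFEB probe set was not called after Nrf2 siRNA (0.11, adjusted p = 0.222). Between the controls it was called lower in NS siRNA (-0.47, adjusted p = 0.000113). TFE3 fell by 0.26 against NS siRNA and by 0.33 against mock (adjusted p = 0.000375 and 8.66e-05), and 2 of its 3 other probe sets fell as well. MITF was 0.57 higher than in mock after Nrf2 siRNA and 0.65 higher after NS siRNA (adjusted p = 0.000213 and 8.48e-05), and the siRNA groups differed from each other by -0.08 ± 0.09 (adjusted p = 0.457). On the second MITF probe set the rises over mock were larger, 1.23 after Nrf2 siRNA and 1.28 after NS siRNA (adjusted p = 1.14e-08 and 1.78e-08), and the third, at 4.41, was not called.

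**Figure D3:**
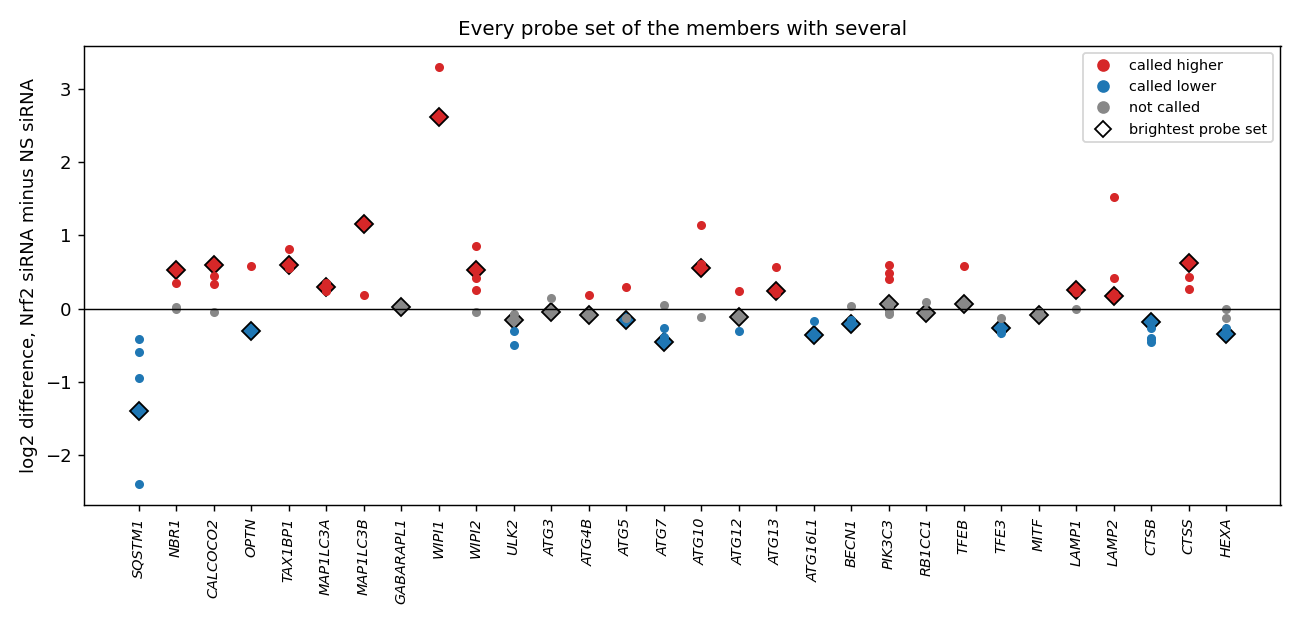
Log2 difference between Nrf2 siRNA and NS siRNA (vertical axis) on every probe set of the 30 members that have several, with the brightest as a diamond; red and blue mark probe sets called higher and lower at adjusted p below 0.05, grey those not called, with p adjusted over all 41091 single-gene probe sets. All 5 SQSTM1 and all 5 CTSB probe sets lie below 0, and OPTN, ATG5 and ATG12 have called probe sets on both sides.

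Lysosomal hydrolases among the members fell in part. Outside the members 19 of 31 measured lysosomal enzymes were higher than in NS siRNA and 2 lower, as given below. GLA, the alpha-galactosidase that clears glycolipids, stood at 12.35, 12.31 and 12.25 in mock, 12.25, 12.28 and 12.23 in NS siRNA, and 11.15, 11.17 and 11.21 in Nrf2 siRNA. The controls overlapped, and all 3 Nrf2 siRNA arrays were about 1 log2 unit below them. GLA fell 2.11-fold against NS siRNA (-1.08 ± 0.04, adjusted p = 1.07e-09) and 2.19-fold against mock (-1.13 ± 0.04, adjusted p = 1.61e-09), on its only probe set. HEXA, the alpha chain of beta-hexosaminidase, stood at 11.42, 11.55 and 11.42 in mock, 11.47, 11.47 and 11.51 in NS siRNA, and 11.05, 11.15 and 11.19 in Nrf2 siRNA. Nrf2 siRNA was again the lowest group without overlap. HEXA fell by 0.35 and 0.33 (adjusted p = 0.000106 and 0.000278), and the call against mock was lost with the mean of its probe sets (-0.11, adjusted p = 0.0858).

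GAA, the acid glucosidase that breaks down glycogen, stood at 10.33, 10.64 and 10.25 in mock, 10.15, 10.14 and 10.14 in NS siRNA, and 9.63, 9.79 and 9.98 in Nrf2 siRNA. The mock and Nrf2 siRNA arrays of GAA spread more widely (SD 0.21 and 0.17) than those of the other glycosidases, and its NS siRNA arrays less (SD 0.01). GAA fell by 0.34 against NS siRNA (± 0.10, adjusted p = 0.0119) and by 0.61 against mock (adjusted p = 0.000342); without Nrf2 siRNA replicate 1 the call against NS siRNA was lost (adjusted p = 0.0538). The sialidase NEU1 stood at 9.72, 9.89 and 9.74 in mock, 9.16, 9.07 and 9.14 in NS siRNA, and 9.72, 9.75 and 9.77 in Nrf2 siRNA. It differed by 0.62 from NS siRNA (adjusted p = 6.77e-07) and by -0.04 from mock (adjusted p = 0.64), with mock and Nrf2 siRNA overlapping.

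The cathepsins among the members, proteases of the lysosome, went both ways. CTSL stood at 12.89, 12.82 and 12.74 in mock, 12.58, 12.57 and 12.54 in NS siRNA, and 12.11, 12.16 and 12.07 in Nrf2 siRNA. The groups were ordered mock, NS siRNA, Nrf2 siRNA from high to low without overlap, and CTSL fell by 0.45 against NS siRNA and by 0.70 against mock (adjusted p = 6.75e-06 and 2.54e-07). CTSS, a cysteine protease best known from antigen-presenting cells, stood at 8.69, 8.67 and 8.52 in mock, 8.96, 8.96 and 8.88 in NS siRNA, and 9.43, 9.61 and 9.63 in Nrf2 siRNA. It had the reverse order, rising against NS siRNA by 1.54-fold and against mock by 1.90-fold (adjusted p = 3.57e-06 and 2.14e-07), and both other probe sets rose. Of the macrophage and leukocyte markers that could accompany CTSS, 1 of 4 was higher in Nrf2 siRNA, and their summed level on the log2 scale ran from 9.04 to 9.10 in mock, 9.08 to 9.20 in NS siRNA and 9.51 to 9.72 in Nrf2 siRNA. That rise was in CD14, while PTPRC, which defines leukocytes, averaged 7.13 in mock and 7.26 in each siRNA group, below the array medians; the part of these markers in the result was not tested.

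The remaining cathepsins among the members fell slightly or were not called. CTSB fell by 0.18 against NS siRNA and by 0.15 against mock (adjusted p = 0.00244 and 0.0103), and all 4 of its other probe sets fell against NS siRNA. Against mock 1 of these 4 was called lower, and the average of the 5 ended the call (-0.09, adjusted p = 0.0746). Between the controls the 3 dimmest CTSB probe sets were called with NS siRNA above mock, by 0.35, 0.55 and 0.34. After Nrf2 siRNA these 3 differed from mock by -0.07, 0.15 and -0.11 and were not called, so their fall depended on the control. CTSA, a carboxypeptidase that protects NEU1 in a shared complex, fell by 0.20 against NS siRNA and was at -0.12 against mock (adjusted p = 0.0623). The aspartic protease CTSD was called against mock (-0.20, adjusted p = 0.0384) but not against NS siRNA (-0.13, adjusted p = 0.136). The CTSD call was lost without replicate 2 of mock (-0.13, adjusted p = 0.156) or of NS siRNA (0.0518), and without replicate 1 or 3 of Nrf2 siRNA (0.142 and 0.102).

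In the lysosomal membrane the calcium channel gene MCOLN1 stood at 9.32, 9.38 and 9.35 in mock, 9.39, 9.33 and 9.41 in NS siRNA, and 8.67, 8.79 and 8.73 in Nrf2 siRNA. The controls overlapped and Nrf2 siRNA was lowest, a fall against NS siRNA of 1.56-fold and against mock of 1.54-fold (adjusted p = 1.66e-07 and 4.99e-07). The membrane protein LAMP1 rose by 0.25 against NS siRNA (adjusted p = 0.000491) and by 0.13 against mock (adjusted p = 0.0353), the latter lost in 6 of 17 settings, among them without mock replicate 1 or 3 and without Nrf2 siRNA replicate 1 or 2 (adjusted p = 0.0672 to 0.12). LAMP2, needed for the fusion of autophagosomes with lysosomes, rose by 0.18 against NS siRNA and was at -0.06 against mock (adjusted p = 0.377). Its probe sets disagreed in size: the second brightest was 1.52 higher than in NS siRNA and 0.01 from mock.

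The 250 bases before the gene start are shown for 4 members that hold a match to either of 2 motifs. MCOLN1 and CTSL fell against NS siRNA, and LAMP1 and MAP1LC3B rose. Whether the motifs have a part in these values was not tested. The bases were read from RefSeq (GRCh38.p14, gene strand, 5′ to 3′). Capitals mark matches to either of the 2 motifs, searched on both strands, that lie wholly within the printed bases. One is TGACNNNGC, the core of the antioxidant response element that NRF2 binds, and the other is CACGTG, the E-box at the centre of the CLEAR element. In LAMP1 a TGACNNNGC match on the opposite strand overlaps the first CACGTG, so they form 1 run of capitals.
MCOLN1, chr19:7522374-7522623, plus strand: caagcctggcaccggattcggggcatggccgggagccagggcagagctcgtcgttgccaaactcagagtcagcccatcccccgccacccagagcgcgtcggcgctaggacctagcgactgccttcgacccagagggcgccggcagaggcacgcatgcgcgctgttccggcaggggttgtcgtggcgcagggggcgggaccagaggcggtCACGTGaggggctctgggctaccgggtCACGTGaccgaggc
LAMP1, chr13:113296989-113297238, plus strand: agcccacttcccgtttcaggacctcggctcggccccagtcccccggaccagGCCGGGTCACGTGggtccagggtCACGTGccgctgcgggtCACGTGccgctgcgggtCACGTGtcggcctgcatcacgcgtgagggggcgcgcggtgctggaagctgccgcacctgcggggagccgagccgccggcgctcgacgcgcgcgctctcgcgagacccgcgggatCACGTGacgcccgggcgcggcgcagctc
CTSL, chr9:87725869-87726118, plus strand: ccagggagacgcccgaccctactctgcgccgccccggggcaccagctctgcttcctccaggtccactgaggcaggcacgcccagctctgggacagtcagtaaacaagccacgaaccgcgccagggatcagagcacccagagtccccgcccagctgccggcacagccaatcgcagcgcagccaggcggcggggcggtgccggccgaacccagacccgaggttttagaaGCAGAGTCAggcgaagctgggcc
MAP1LC3B, chr16:87392086-87392335, plus strand: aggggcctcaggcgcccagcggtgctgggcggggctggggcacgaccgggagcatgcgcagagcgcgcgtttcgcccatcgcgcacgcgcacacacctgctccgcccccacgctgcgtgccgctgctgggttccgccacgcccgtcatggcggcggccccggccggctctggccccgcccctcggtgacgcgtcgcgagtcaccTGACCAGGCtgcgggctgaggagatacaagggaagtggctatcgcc

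The search itself covered 300 bases around each gene start, 250 before and 50 after, and 38 of the 45 members had an entry. CACGTG was found for 8 of the 38 (21.1%), and for 8.77% of 27305 genes with an entry. The 8 were ATG3, ATG14, CTSA, CTSD, GAA, LAMP1, MCOLN1 and NEU1. LAMP1 held 6 matches, the last of which starts at the last printed base and is not in capitals. The directions of the 8 genes differed: MCOLN1, GAA and CTSA fell against NS siRNA, LAMP1 and NEU1 rose, and ATG3, ATG14 and CTSD were not called. TGACNNNGC was found for 8 of the 38 (21.1%) and for 16.1% of all genes; the 8 were CALCOCO2, CTSA, CTSD, CTSL, GAA, GLA, LAMP1 and MAP1LC3B. SQSTM1 had no match to either motif around its 3 listed starts, which says only that these letters are not in those windows. A match is a run of letters and not a shown binding site.

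The comparison of NS siRNA with mock asked what differs between the controls. Several members that stood high in Nrf2 siRNA against NS siRNA were low in NS siRNA itself. By limma 7 members were higher and 14 lower in NS siRNA than in mock, and 24 were not called. Over all genes 30.8% were called, 15.6% higher and 15.2% lower, and of genes above the median level 41.5% (20.0% and 21.4%), against 46.7% of the members (15.6% higher and 31.1% lower). The median over the members was -0.05 and over all genes 0.03. WIPI1 was 2.97-fold lower than in mock (-1.57 ± 0.07, adjusted p = 1.24e-08), GABARAP 2.12-fold (-1.08 ± 0.04, adjusted p = 2.14e-09) and MAP1LC3B 2.02-fold (-1.01 ± 0.04, adjusted p = 6.81e-09). The other MAP1LC3B probe set was lower by a smaller amount (-0.24), and the average of both gave -0.63. For all 3 genes the NS siRNA arrays were below every mock array.

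NEU1 was lower in NS siRNA by 0.66, ATG10 by 0.52 and ATG9A by 0.51 (adjusted p = 1.12e-06, 4.31e-05 and 3.37e-05). Of the other ATG10 probe sets 2 were called lower too, and 1 was called higher (0.19, adjusted p = 0.0499). NEU1 and ATG9A have 1 probe set each. ATG9A stood at 10.10, 10.26 and 10.02 in mock, 9.61, 9.58 and 9.67 in NS siRNA, and 10.02, 10.05 and 10.12 in Nrf2 siRNA, so NS siRNA was the only group apart. LAMP2 was lower by 0.24, and on its second brightest probe set it fell by 1.51. In the other direction SQSTM1 was 1.31-fold higher in NS siRNA than in mock (0.39 ± 0.05, adjusted p = 2.75e-05), on all 5 of its probe sets, and MITF 1.57-fold higher. For several of these genes the result depended on the control: against mock NEU1, GABARAP, ATG9A and LAMP2 did not pass after Nrf2 siRNA, nor did ATG10 on its brightest probe set, and WIPI1 rose 2.06-fold in place of 6.13-fold. SQSTM1 and GLA were called lower against either control. Of 5 fibroblast markers COL1A1 differed by -0.94 between NS siRNA and mock and was 1.12 higher in Nrf2 siRNA than in NS siRNA, and THY1 0.34 higher than in NS siRNA. COL1A2, DCN and PDGFRB were not called in any comparison. The summed log2 level of the 5 ran from 11.40 to 11.71 in mock, 10.95 to 10.99 in NS siRNA and 11.62 to 11.83 in Nrf2 siRNA. COL1A1 alone averaged 11.06, 10.12 and 11.24 in these groups. The part of these markers in the result was not tested.

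**Figure D4:**
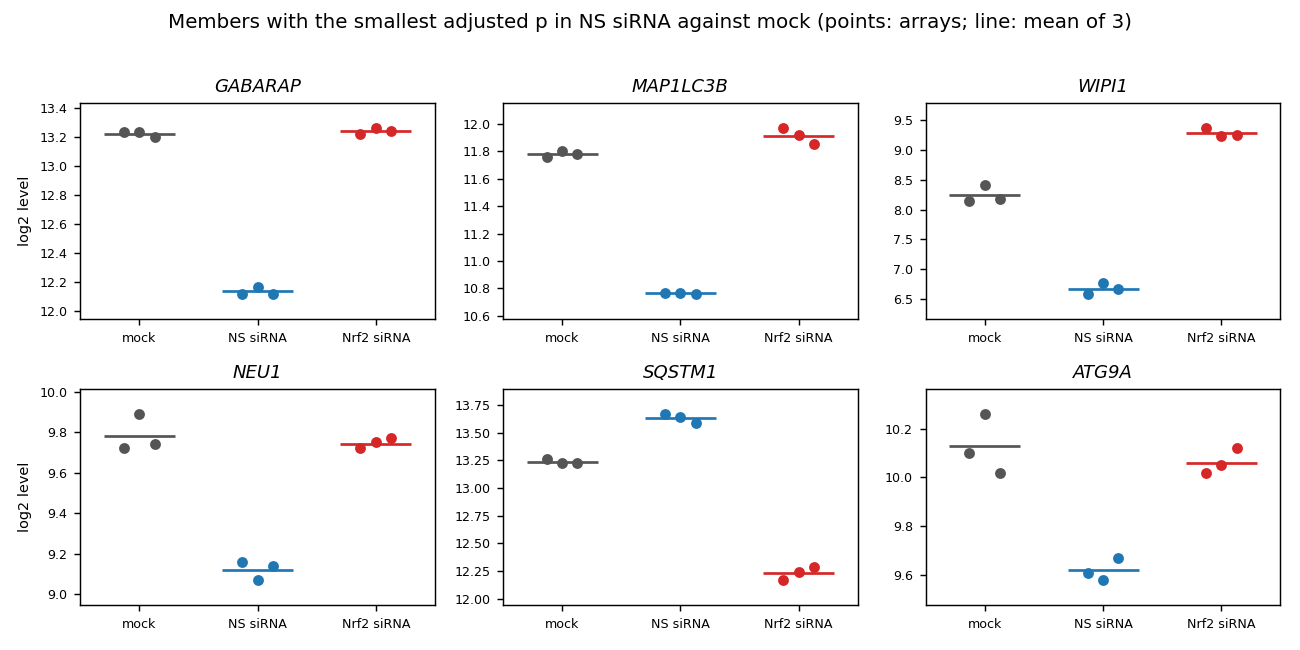
Log2 level (vertical axis, own scale in each panel) of the 6 members with the smallest adjusted p between NS siRNA and mock, each point 1 array and each line the mean of 3. In NS siRNA GABARAP, MAP1LC3B, WIPI1, NEU1 and ATG9A sit below mock and Nrf2 siRNA, while SQSTM1 sits above both.

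The other genes of the pathway were read from 6 lists set by name. The lists were chosen with earlier results of these data known, so their shares are a description and not independent support. The shares to read them against are 21.0% of all genes higher and 26.6% lower than in NS siRNA (28.7% and 31.2% of genes above the median level), and 16.4% and 16.7% against mock (22.0% and 22.5%). Lysosomal enzymes outside the members were mostly higher in Nrf2 siRNA than in NS siRNA, 19 of 31 measured (61.3%), with 2 lower (6.45%) and a median of 0.23. They were also mostly lower in NS siRNA than in mock, 22 of 31, with 0 higher and a median of -0.20, where 15.2% of all genes were lower. Against mock 12 rose (38.7%) and 8 fell (25.8%) after Nrf2 siRNA, with a median of 0.06. The largest differences from NS siRNA were those of HGSNAT (1.48; 0.39 against mock), which acetylates heparan sulfate, the fucosidase FUCA1 (1.15; 0.72 against mock) and the cathepsin CTSH (1.13; 1.11 against mock). The glucuronidase GUSB fell by 0.58 and the mannosidase MAN2B1 by 0.34, and both fell against mock as well, by 0.69 and 0.54. HGSNAT was 1.10 lower in NS siRNA than in mock (adjusted p = 2.86e-08), the lowest difference in the list.

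Of 24 other core autophagy factors 12 were higher and 3 lower than in NS siRNA (50% and 12.5%), with 7 and 2 against mock (29.2% and 8.33%). ATG2B, the lipid transfer relative of ATG2A, rose by 1.08 and 0.45 against NS siRNA and mock. VAMP8, a fusion protein of the autophagosome and lysosome, rose by 0.47 and 0.93. Of 17 other selective autophagy genes 6 were higher and 5 lower than in NS siRNA (35.3% and 29.4%), and 3 and 5 than in mock (17.6% and 29.4%), near the shares of genes above the median level. TRIM5 had the largest rise of this list, 1.21 against NS siRNA and 0.50 against mock, and its other probe set was not called against NS siRNA. NCOA4, the ferritin receptor, was 0.86 higher than in NS siRNA and 0.08 from mock (adjusted p = 0.271). RETREG1, a receptor for the endoplasmic reticulum, rose by 0.79 and 0.56. KEAP1, the partner of SQSTM1 and NRF2, fell by 0.51 and 0.50, and BNIP3, a mitochondrial receptor, by 0.41 and 0.25.

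Of 15 measured genes of the V-ATPase, the proton pump that acidifies the lysosome, 4 were higher and 6 lower than in NS siRNA (26.7% and 40%), near the shares of genes above the median level. Against mock 2 were higher and 2 lower (13.3% each). The shares there were 16.4% and 16.7% for all genes, and 22.0% and 22.5% for genes above the median level. ATP6V1C1 fell by 0.57 and 0.27 against NS siRNA and mock, and ATP6AP1 was 0.67 higher than in NS siRNA and 0.10 from mock (adjusted p = 0.11). Of 26 lysosomal membrane and sorting genes 10 were higher and 6 lower than in NS siRNA (38.5% and 23.1%). Against mock 5 were higher and 7 lower (19.2% and 26.9%). Genes above the median level stood at 28.7% and 31.2% against NS siRNA. The two-pore channel gene TPCN1 rose by 1.12 and 0.83, the sialic acid exporter SLC17A5 by 0.60 and 0.78, and the cystine exporter CTNS fell by 0.50 and 0.48. NPC1, a cholesterol exporter, fell by 0.70 against NS siRNA and by 0.20 against mock. Of 29 genes of nutrient signalling at the lysosome 11 were higher and 6 lower than in NS siRNA (37.9% and 20.7%), and 7 and 7 than in mock (24.1% each). SESN3, a sestrin, rose by 1.42 and 0.42, and the RAG GTPase gene RRAGD fell by 0.51 and 0.33. Its relative RRAGA was 0.82 higher than in NS siRNA and at -0.09 against mock (adjusted p = 0.177). Medians over these 5 lists lay between -0.03 and 0.13 against NS siRNA and between -0.07 and 0.02 against mock.

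**Figure D5:**
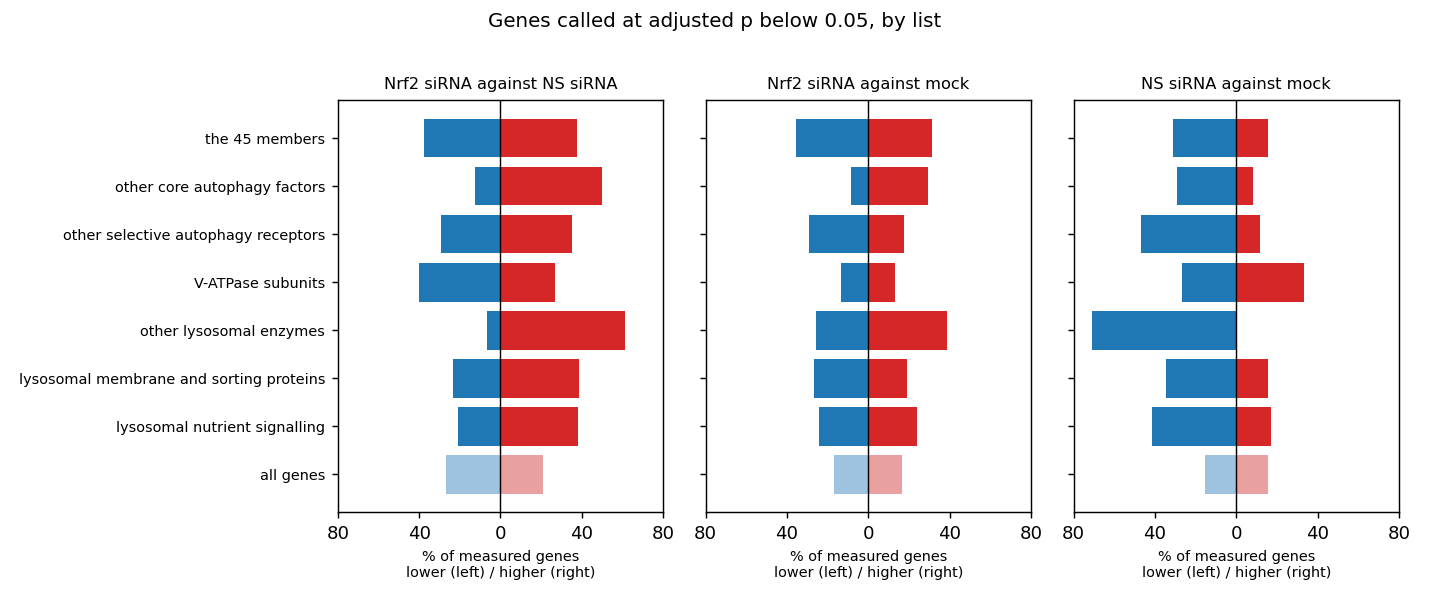
Percentage of the measured genes of each list called lower (blue, left) or higher (red, right) at adjusted p below 0.05 in each comparison, with all 19775 genes in pale colours. The lysosomal enzymes outside the members stand out in the NS siRNA panel, with 71.0% lower and 0 higher, where all genes stand at 15.2% and 15.6%.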

How the data were processed

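Per the labels' protocols, total RNA was extracted with TRIZOL and an RNeasy kit, and biotin-labelled cRNA was hybridised, 1 array per sample. The deposited values are log2 levels made by the authors with RMA, per the submitters' processing notes, which includes normalization between arrays; its version and settings are not given there. Deposited values ran from 3.60 to 15.06. No detection calls or scan dates were used, so dim probe sets have no background test and batches were not examined.

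Of 54675 probe sets, 62 were controls, 41091 had exactly 1 gene in the array's annotation, 1801 several and 11721 none. A RefSeq table (GRCh38.p14) gave current symbols by Entrez identifier for 41037. The brightest probe set stood for a gene, giving 19775 genes. The 3 group means were fitted with limma 3.58.1 in R 4.3.3 over the 9 arrays (lmFit and eBayes, 6 residual degrees of freedom, prior 6.12), with no further scaling, two-sided p values and Benjamini-Hochberg adjustment over all genes at 0.05. Folds are log2 differences put back on the linear scale. Other probe sets of a gene were called in the same model over all 41091. The code was tested on simulated data. Plots used matplotlib 3.10.9 and Python 3.11.15.

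The members and lists were chosen with earlier results of these data known. Every member is given; every array is printed for members called in 1 direction against NS siRNA and mock alike, with no overlap between Nrf2 siRNA and control arrays (the 12 with the largest smaller difference), for SQSTM1, WIPI1 and MAP1LC3B, and for the 6 with the smallest adjusted p in NS siRNA against mock. List genes were among up to 3 each way with the largest called difference from NS siRNA. Single-gene probe sets were found for 142 of 152 pathway list entries. Alternatives were equal array medians, quantile normalization, genes above the median level, averaging the probe sets of a gene, each probe set on its own, the replicate number as a block, a fit of 2 groups, eBayes with trend and robust variances, and leaving out each array.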

Additional observations from a re-analysis of the deposited data

How the results depend on the processing

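No count of members called moved by more than 1.5 times under any of the 17 alternatives. Against NS siRNA 15 to 21 members were lower and 17 to 19 higher with all arrays, and 15 to 18 and 17 with 1 array left out. Against mock 13 to 18 were lower and 11 to 15 higher, and 13 to 16 and 10 to 14 with 1 array left out. Between the controls 13 to 17 were lower and 7 to 9 higher, and 12 to 15 and 7 to 9 with 1 array left out. The lysosomal enzymes lower in NS siRNA numbered 20 to 24, and 16 to 23 with 1 array left out; these list counts were recomputed under alternatives chosen after seeing the data. With the replicate number as a block, 17 members were higher and 18 lower against NS siRNA. Deviations of arrays with the same number correlated with r from -0.21 to 0.23, and with different numbers from -0.34 to 0.2. These ranges overlap, so whether the numbers pair the samples is not settled. When each gene was the mean over its probe sets, the sign turned for OPTN against NS siRNA (0.14) and between the controls (-0.11), and for ATG5 against NS siRNA (0.01). Averaging also shrank the differences from NS siRNA of NBR1 (0.23), CALCOCO2 (0.34), MAP1LC3B (0.67), ATG7 (-0.26), BECN1 (-0.10) and HEXA (-0.18), and raised those of LAMP2 (0.58), CTSB (-0.34) and ULK2 (-0.25). Of the 34 members called against NS siRNA 30 kept their call and sign in all 17 alternatives, and of the 30 called against mock 19 did. Calls are limited by 3 arrays a group, and dim probe sets by an unknown background.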
